A study of Homo sapiens with 4 samples.

Results

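The BCL2 family decides whether the mitochondrial outer membrane stays intact when a cell is under stress. Of that family, 10 genes are described here, taken by symbol from a table of 28278 genes: the anti-apoptotic guards MCL1, BCL2 and BCL2L1 (BCL-XL), the pore-forming effectors BAX and BAK1, and the BH3-only death factors BBC3 (PUMA), PMAIP1 (NOXA), BCL2L11 (BIM), BID and BIK. All 10 were present in the table, all 10 passed the filter on low counts, and the choice was by symbol, with no threshold on a measured value. The choice was made with earlier results of these data known, so counts over the members carry that limit. RNA was sequenced from A549, an established human lung adenocarcinoma line, after lentiviral infection had given a stable control line (Control, 2 libraries, genotype given as WT although the cells carry a control construct) and a stable line overexpressing CBX7 (OE_CBX7, 2 libraries). Both lines were grown in the same serum-containing medium. CBX7 is a chromobox subunit of Polycomb repressive complex 1, and the design asks which genes change when it is overexpressed. The sources used here do not say whether each line is 1 clone or a pool, what drives the construct, or whether replicates were separate cultures, so the spread that each p-value measures may be technical. An untransduced line was not analysed here.

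As background, the guards bind and hold the effectors and the BH3-only proteins. A BH3-only protein that is made or freed under stress occupies the groove of a guard, or engages an effector directly, and BAX and BAK1 then assemble into pores that release cytochrome c and start the caspases. The binding is selective: NOXA pairs mainly with MCL1, BIM and PUMA with all the main guards. MCL1 and NOXA are short-lived proteins, so their transcript levels are only part of their control, and protein was not measured.

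Library totals ran from 69877585 to 90765502 estimated counts. Levels are in CPM (counts relative to the library total and its TMM factor) and are not corrected for gene length unless stated; group values are mean ± SD over n = 2 libraries. A gene is called at an adjusted p under 0.05 in edgeR's quasi-likelihood test with Benjamini-Hochberg adjustment over all 17271 tested genes, the source of every adjusted p below unless another tool is named. CBX7 itself rose 2.17-fold, with 8.37 ± 0.521 CPM in the control line and 18.1 ± 1.31 CPM in the other (adjusted p = 0.000141). Of 8 epithelial markers the keratins KRT8, KRT18 and KRT7 were abundant in every library, at 6308, 4554 and 1315 CPM or more, whereas KRT19, EPCAM and CLDN4 stayed at 0.453, 1.61 and 2.97 CPM or less; KRT7 was called lower and ELF3 higher with CBX7. The 7 alveolar genes summed to 66.8 to 87.7 CPM in the controls and 98.8 to 102 CPM with CBX7, nearly all of it ABCA3, which was called higher, as was NKX2-1 at 1.27 CPM or less; the surfactant genes SFTPA1, SFTPB, SFTPC and SFTPD stayed at 0.352 CPM or less. Markers of other cell types were low: the 7 leukocyte genes summed to 2.39 to 4.03 CPM in the controls and 5.02 to 5.16 CPM with CBX7 (CD3E at 0 counts throughout), the 6 fibroblast genes to 5.31 to 8.02 and 7.74 to 8.47 CPM, and the 5 endothelial genes to 0.836 to 1.61 and 2.88 to 3.70 CPM. Of these, CD14 and CDH5 were called higher, and the part of the markers in the results was not tested.

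Of the 10 members, 6 fell with CBX7 overexpression, none was called higher and 4 were not called. By class, 4 of 5 BH3-only genes fell (PMAIP1, BBC3, BIK and BCL2L11), against 1 of 2 effectors (BAK1) and 1 of 3 guards (MCL1). Across all tested genes 13.9% were called lower, 10.5% higher and 24.4% in either direction. The median log2 fold change was -0.67 over the 10 members, -1.42 over the BH3-only genes, -0.27 over the effectors and -0.14 over the guards, while the median of all tested genes was -0.00015. In classes this small the BH3-only median is the value of BIK alone and the guards' median that of BCL2L1 alone. The effectors' median lies midway between BAX and BAK1. Library values of the groups did not overlap for 9 of 10 members, which is also the case for 62.8% of tested genes. In bulk RNA, fewer cells that express a gene and less RNA per cell cannot be told apart.

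**Figure D1:**
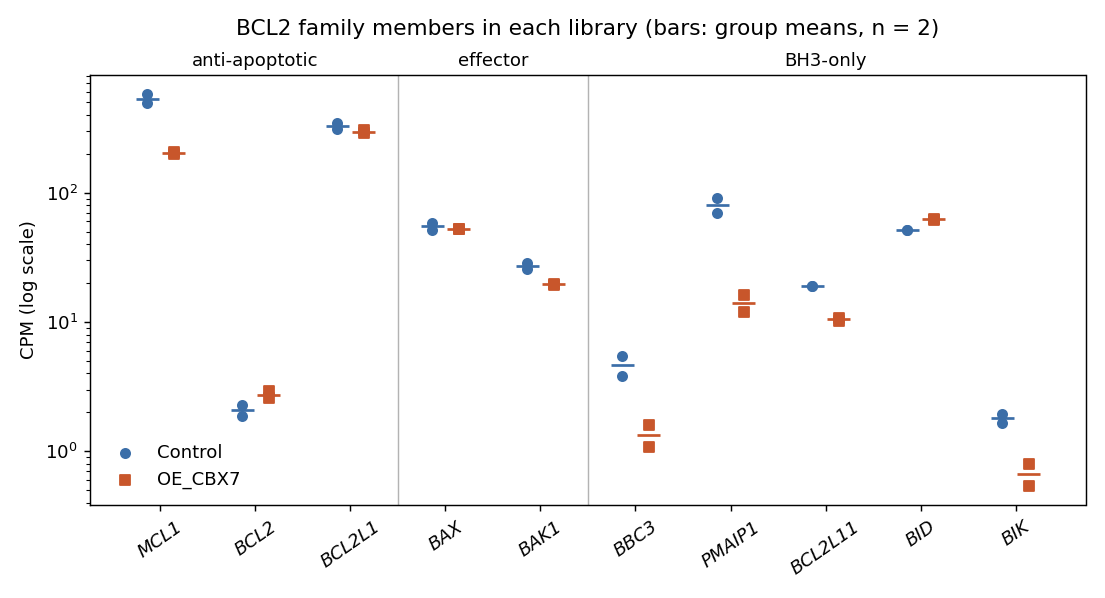
CPM on a log axis (not corrected for length) for the 10 members in each library, with circles for the 2 Control libraries, squares for the 2 OE_CBX7 libraries and a short bar for each group mean. PMAIP1, BBC3, BIK, BCL2L11, BAK1 and MCL1 lie lower with CBX7, and of all 10 only BAX has groups that overlap.

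Of the 10 members, PMAIP1 had the change of greatest size, under every alternative tried. PMAIP1 (NOXA, induced by the stress factor ATF4) was at 91.2 and 69.5 CPM in the controls and at 12.0 and 16.2 CPM with CBX7. Both CBX7 libraries lay far below both controls, by more than either pair of replicates differed. The fall was 5.70-fold, with group means of 80.4 ± 15.3 and 14.1 ± 2.93 CPM (a log2 change of -2.51 with SE 0.169, adjusted p = 3.26e-07), and 2.95% of tested genes had a lower log2 fold change. BBC3 (PUMA, which binds all the main guards) was at 5.50 and 3.83 CPM in the controls and at 1.59 and 1.08 CPM with CBX7. Both CBX7 libraries lay below both controls, although replicates differed within each group. Its fall was 3.50-fold (log2 fold change -1.81, SE 0.326, adjusted p = 0.00116). These BBC3 values rest on 474 and 261 counts in the Control libraries and on 149 and 97 in the others.

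BCL2L11 (BIM, the death factor that FOXO factors induce and that ERK signalling marks for destruction) was close between replicates in both groups. It was at 19.1 and 19.0 CPM in the controls and at 10.7 and 10.2 CPM with CBX7. The groups were far apart for the spread within them, and the fall was 1.82-fold (log2 fold change -0.86, SE 0.146, adjusted p = 0.000705). BIK, a BH3-only protein of the endoplasmic reticulum membrane, was at 1.66 and 1.93 CPM in the controls and at 0.801 and 0.543 CPM with CBX7. With 143 and 132 counts against 75 and 49 it was the least counted of the 6 that fell (log2 fold change -1.42, SE 0.438, adjusted p = 0.0306). BIK lost its call without control library 1 (adjusted p = 0.0689), control library 2 (0.118) or CBX7 library 2 (0.176), and its adjusted p over all 11 alternatives ran from 0.0148 to 0.176.

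BID stood apart from the other BH3-only genes. It encodes the protein that caspase-8 cleaves to link death receptors to the mitochondrial route. BID was at 51.3 and 51.1 CPM in the controls and at 61.5 and 62.6 CPM with CBX7. Both CBX7 libraries lay above both controls, yet the difference did not pass the test (log2 fold change 0.28, 95% interval 0.051 to 0.51, adjusted p = 0.0718). DESeq2 (adjusted p = 0.0470) and scaling by library totals (0.0286) called it higher, within a range of 0.0286 to 0.352 over the 11 alternatives.

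Promoter sequence is shown for a pair of BH3-only genes that fell and for BAX, which was not called, because short motifs of transcription factors lie in these windows. RefSeq windows (GRCh38.p14) of the 250 bases before a transcript start were matched by symbol for 8 of the 10 members, MCL1 and BIK being the 2 unmatched, and were searched on both strands. The capitals in the PMAIP1 stretch (chr18:59899911-59899975, plus strand, 85 to 21 bases before the start) mark the core of the CRE, the element of the ATF and CREB factors, here as the reverse complement of TGACG. The capitals in the BBC3 stretch (chr19:47232744-47232810, minus strand, 143 to 77 bases before the transcript start of the window used) mark the AP-1 motif TGANTCA. BBC3 is annotated up to position 47232860 on this minus strand. The stretch therefore lies inside the annotated gene, downstream of its outermost start. The capitals in the BAX stretch (chr19:48954707-48954772, plus strand, 168 to 103 bases before the start) mark the first of its 4 E boxes, CACGTG. The BAX stretch also holds the CRE core TGACG, which overlaps this E box and begins 134 bases before the start.
PMAIP1: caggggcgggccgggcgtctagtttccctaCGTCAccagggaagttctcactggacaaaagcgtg
BBC3: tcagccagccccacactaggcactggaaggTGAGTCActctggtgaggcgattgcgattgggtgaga
BAX: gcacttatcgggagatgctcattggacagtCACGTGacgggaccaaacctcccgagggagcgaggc

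The CRE core TGACG was in a window of 4 of the 8 members (BCL2, BCL2L1, BAX and PMAIP1) and of 24.9% of all 27305 genes in the promoter table. Of those 4 members PMAIP1 was called lower, and BCL2, BCL2L1 and BAX were not called. The full CRE, TGACGTCA (which contains the core), was in none of the 8 and in 2.03% of genes. AP-1 was in BBC3 alone (8.06% of genes), the E box in BAX, BBC3 and BID (7.73%), the CCAAT box CCAAT in BAX, BAK1, BBC3 and BCL2L11 (37.0%), and the GC box GGGCGG in BAX, BAK1, PMAIP1, BCL2L11 and BID (46.2%). The STAT motif GAS, TTCNNNGAA, and the interferon element ISRE (GAAA, any 2 bases, GAAA) were in none of the 8, against 8.09% and 3.71% of genes. These matches describe letters in the windows only.

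Among the effectors, BAK1 fell and BAX was not called. BAK1, which sits in the mitochondrial membrane and is held there by MCL1 and BCL-XL, was at 25.8 and 28.7 CPM in the controls and at 19.8 and 19.5 CPM with CBX7. The groups did not overlap, and the fall was 1.39-fold (log2 fold change -0.47, SE 0.129, adjusted p = 0.0161). The call was lost without control library 2 (adjusted p = 0.0622), CBX7 library 1 (0.106) or CBX7 library 2 (0.113), and its range over the 11 alternatives was 0.00525 to 0.113. BAX, the effector that moves from the cytosol to mitochondria when activated, was at 51.4 and 58.2 CPM in the controls and at 52.7 and 52.0 CPM with CBX7. The CBX7 libraries lay between the controls, and the 95% interval of the log2 fold change, -0.31 to 0.18 around -0.066, leaves out a change of 2-fold either way (adjusted p = 0.739).

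Of the 3 guards among the members only MCL1 fell. MCL1, on which NOXA acts, was at 575 and 493 CPM in the controls and at 207 and 199 CPM with CBX7. The 2.63-fold fall (a log2 change of -1.40 with SE 0.103, adjusted p = 2.41e-07) took its mean from 534 ± 57.9 to 203 ± 5.37 CPM, and 6.86% of tested genes had a lower log2 fold change. BCL2L1, which encodes BCL-XL, was at 313 and 343 CPM in the controls and at 290 and 303 CPM with CBX7. Its groups did not overlap, but the difference was small and not called (log2 fold change -0.14, 95% interval -0.35 to 0.059, adjusted p = 0.308). BCL2 itself was scarce, at 2.28 and 1.89 CPM in the controls and 2.92 and 2.57 CPM with CBX7. From these 129 to 273 counts per library the log2 fold change was 0.40 with a 95% interval of -0.28 to 1.07 (adjusted p = 0.408), so a change of 2-fold upward is inside the interval. The antisense gene BCL2L1-AS1 overlaps BCL2L1, and without strand their reads cannot be told apart. Counts per gene do not separate the long and short splice forms of MCL1 and BCL2L1, which differ in whether they protect or kill.

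**Figure D2:**
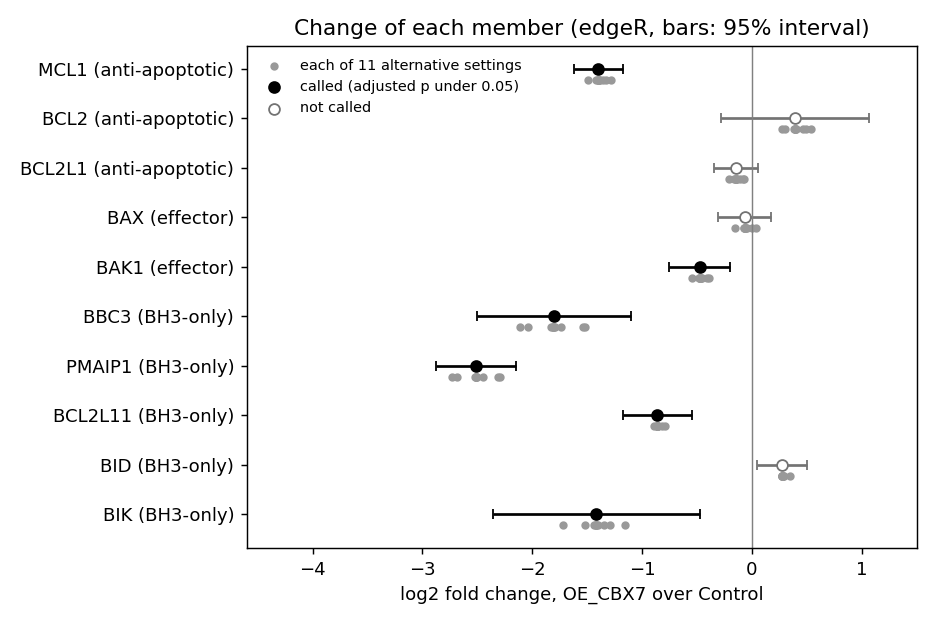
Log2 fold change of OE_CBX7 over Control for each member, with the 95% interval of the edgeR fit as a bar, filled points for called members and open points for the others; grey points below each give the 11 alternative settings. PMAIP1 lies farthest from 0 at -2.51, and the grey points cross 0 for BAX alone.

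Taken by class in each library, the mean log2 CPM of the BH3-only genes was 3.93 and 3.79 in the controls and 2.66 and 2.51 with CBX7, a difference of -1.27. The guards' mean was 6.21 and 6.10 in the controls and 5.81 and 5.75 with CBX7, a difference of -0.38, with MCL1 the 1 called gene among them. The effectors' mean was 5.19 and 5.35 against 5.01 and 4.99, a difference of -0.27. Class means are given without a test, because the members were chosen with results of these data known.

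Divided by exon length (the union of GENCODE 29 basic transcripts, GRCh38, so approximate where other transcripts are used), the order of the members differed between the lines. In the controls MCL1 led with 141 and 121 CPM per kilobase, just above BCL2L1 with 109 and 120. With CBX7 BCL2L1 led with 102 and 106 CPM per kilobase, and MCL1 had 50.6 and 48.7. Next in the controls came BAX (36.4 and 41.2) and PMAIP1 (43.5 and 33.1), whose library values overlapped. With CBX7 PMAIP1 had 5.74 and 7.71 CPM per kilobase and lay sixth, below BAX (37.3 and 36.9), BID (21.9 and 22.3) and BAK1 (8.94 and 8.80). BCL2L11 was seventh in both lines, at 3.14 and 3.12 in the controls and 1.76 and 1.68 with CBX7. BBC3 and BIK overlapped in both lines at 2.63 CPM per kilobase or less, and BCL2 was last in both at 0.248 or less.

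Ratios between members within a library do not depend on library scaling, and 10 ratios were compared, 8 of them to MCL1 and so sharing its fall. The log2 ratio of BCL2L1 to MCL1 (CPM, not per length) was -0.88 and -0.52 in the controls and 0.49 and 0.61 with CBX7, a shift of 1.25. The ratio of BCL2 to MCL1 went from -7.98 and -8.03 to -6.15 and -6.27, a shift of 1.79. That of BID to MCL1 went from -3.49 and -3.27 to -1.75 and -1.67, and that of BAK1 to MCL1 from -4.48 and -4.10 to -3.38 and -3.35. BIM gained on MCL1 as well, although both fell: the log2 ratio of BCL2L11 to MCL1 was -4.91 and -4.70 in the controls and -4.27 and -4.28 with CBX7. NOXA and PUMA went the other way. PMAIP1 to MCL1 was -2.66 and -2.83 in the controls and -4.10 and -3.62 with CBX7, a shift of -1.12. BBC3 to MCL1 was -6.71 and -7.01 in the controls and -7.02 and -7.53 with CBX7, a shift of -0.42, with adjacent group values. The ratio of BAX to BCL2 was 4.50 and 4.94 in the controls and 4.17 and 4.34 with CBX7, and that of BAX to BCL2L1 moved by 0.080. Groups did not overlap for the levels of 62.8% of tested genes, and no such share was computed for ratios of gene pairs. For 9 of the 10 ratios the groups did not overlap. Each of these had an exact two-sided permutation p = 0.333 (0.370 adjusted over the 10), the smallest that 2 against 2 libraries can give. The exception was BIK to MCL1, with -8.44 and -7.99 in the controls and -8.01 and -8.52 with CBX7 (exact permutation p = 0.667).

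**Figure D3:**
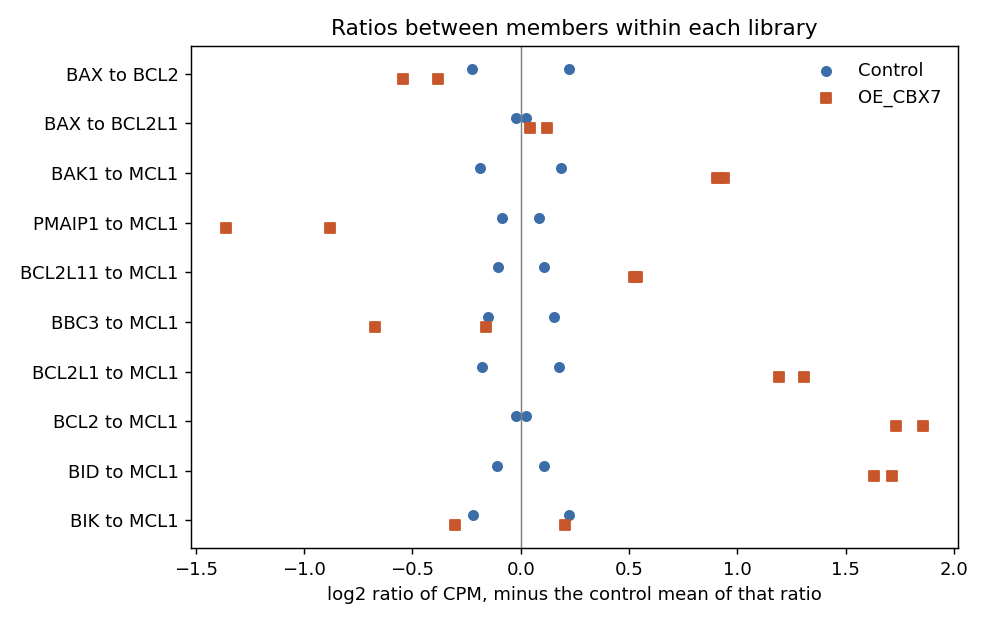
Log2 ratio of 2 members' CPM in each library, set to 0 at the mean of the Control libraries; circles are Control and squares OE_CBX7. BCL2, BID and BCL2L1 relative to MCL1 lie to the right with CBX7 and PMAIP1 relative to MCL1 to the left, while BIK to MCL1 overlaps.

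The rest of the family was described from a list of 14 further relatives, 13 of them tested: 4 fell, 2 rose and 7 were not called. Of all tested genes, 13.9% were called lower and 10.5% higher. BCL2A1, a guard that NF-kB induces, was at 2.02 and 2.13 CPM in the controls and at 0.128 and 0.155 CPM with CBX7 (a log2 change of -3.86 with SE 0.511, adjusted p = 8.67e-05). That is a fall to 12 and 14 counts from 174 and 145. HRK (harakiri), a BH3-only gene best known from neurons, was at 2.12 and 2.64 CPM in the controls and at 0.299 and 0.521 CPM with CBX7 (log2 fold change -2.53, adjusted p = 0.00098). BAD, the BH3-only protein that survival kinases phosphorylate, went the other way and rose from 27.1 ± 1.35 to 40.01 ± 0.814 CPM (a log2 change of 0.56, adjusted p = 0.00333). Across all 8 BH3-only genes, 5 fell, BAD rose, and BID and BMF were not called (BMF at 2.54 ± 0.599 and 1.68 ± 0.140 CPM, adjusted p = 0.240). Of the 5 tested guards, members and relatives together, 2 fell (MCL1 and BCL2A1) and 3 were not called. With the effector-like BOK counted, 1 of 3 effectors fell (BAK1) and 2 were not called.

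BCL2L13, a distant relative that acts as a mitophagy receptor, fell from 280 ± 11.1 to 103 ± 2.57 CPM (a log2 change of -1.44, adjusted p = 7.71e-08). BNIP3, a mitophagy receptor induced by hypoxia, fell from 97.2 ± 15.2 to 68.9 ± 2.92 CPM (adjusted p = 0.00907), a call lost without control library 1 (0.0501) or CBX7 library 1 (0.0591). BCL2L15 rose from 2.31 ± 0.712 to 4.53 ± 0.343 CPM (adjusted p = 0.0287). Its call was lost, though not its direction, without control library 2 (log2 fold change 0.69), CBX7 library 1 (1.05) or CBX7 library 2 (0.90). The third effector-like gene, BOK, was at 15.9 ± 1.34 and 21.0 ± 0.955 CPM and was not called (log2 fold change 0.40, adjusted p = 0.0550), while 6 of 11 alternatives called it higher (adjusted p of 0.0276 to 0.313 over all 11). The guard BCL2L2 (BCL-W) was at 39.8 ± 1.90 and 40.3 ± 1.05 CPM (adjusted p = 0.938). The read-through gene BCL2L2-PABPN1, which shares its reads, had 930 counts in control library 1 and 0 in the other libraries, so the level of BCL2L2 there is uncertain. BCL2L10 was too scarce to test.

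Downstream of the pore, the shares called are to be read against the 24.4% of all tested genes called in either direction. Of 11 genes for mitochondrial release and the apoptosome, which include cytochrome c (CYCS), DIABLO, APAF1 and the VDAC channels, 10 were not called and ENDOG, a mitochondrial endonuclease, rose from 8.59 ± 0.328 to 14.3 ± 1.48 CPM (adjusted p = 0.00525; 0.0786 without CBX7 library 2). The median log2 fold change of the 11 was 0.097. Of the 3 caspases described, CASP6 rose from 13.8 ± 2.12 to 23.3 ± 1.36 CPM (adjusted p = 0.00229), and CASP9 and CASP2 were not called.

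Among 7 inhibitors of apoptosis 2 fell, 1 rose and 4 were not called. The neighbours BIRC3 and BIRC2, ubiquitin ligases of TNF receptor signalling, fell from 409 ± 74.4 to 72.2 ± 5.62 CPM (adjusted p = 5.09e-09) and from 149 ± 28.3 to 59.7 ± 0.703 CPM (adjusted p = 4.19e-06). BIRC5 (survivin, which also acts in mitosis) rose by 0.34 on the log2 scale (adjusted p = 0.0298). Its call was lost, though not its direction, without control library 1 (log2 fold change 0.24), CBX7 library 1 (0.40) or CBX7 library 2 (0.28). Of 12 genes that control the turnover of MCL1 or BIM, 11 were not called and 1 fell (8.33%, against 13.9% of all tested genes). FBXW7, a ubiquitin ligase subunit that targets MCL1, fell from 27.1 ± 5.52 to 13.9 ± 0.920 CPM (a log2 change of -0.97, adjusted p = 0.000509).

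Of 20 tested transcription factors known to act on the members, 9 fell, 1 (E2F1) rose and 10 were not called, where 13.9% of all tested genes were called lower and 10.5% higher. Their median log2 fold change was -0.34. ATF3, a stress factor of the ATF family, fell from 229 ± 29.3 to 10.1 ± 0.0286 CPM (adjusted p = 7.28e-12) and DDIT3 (CHOP) from 71.8 ± 5.89 to 6.30 ± 0.589 CPM (adjusted p = 1.68e-10). NFKB1 fell by 1.08 and STAT3, a known activator of MCL1, by 0.68 on the log2 scale (adjusted p of 6.70e-06 and 0.000104). A transcript level does not give the activity of a factor, and the part of these factors in the members' changes was not tested. Over all 67 pathway genes outside the 10 members, 66 were tested, 16 fell, 6 rose and the median log2 fold change was -0.025. The count of 6 that rose was 3 without CBX7 library 2 and 12 with the replicate block. With library totals 15 fell and 13 rose.

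**Figure D4:**
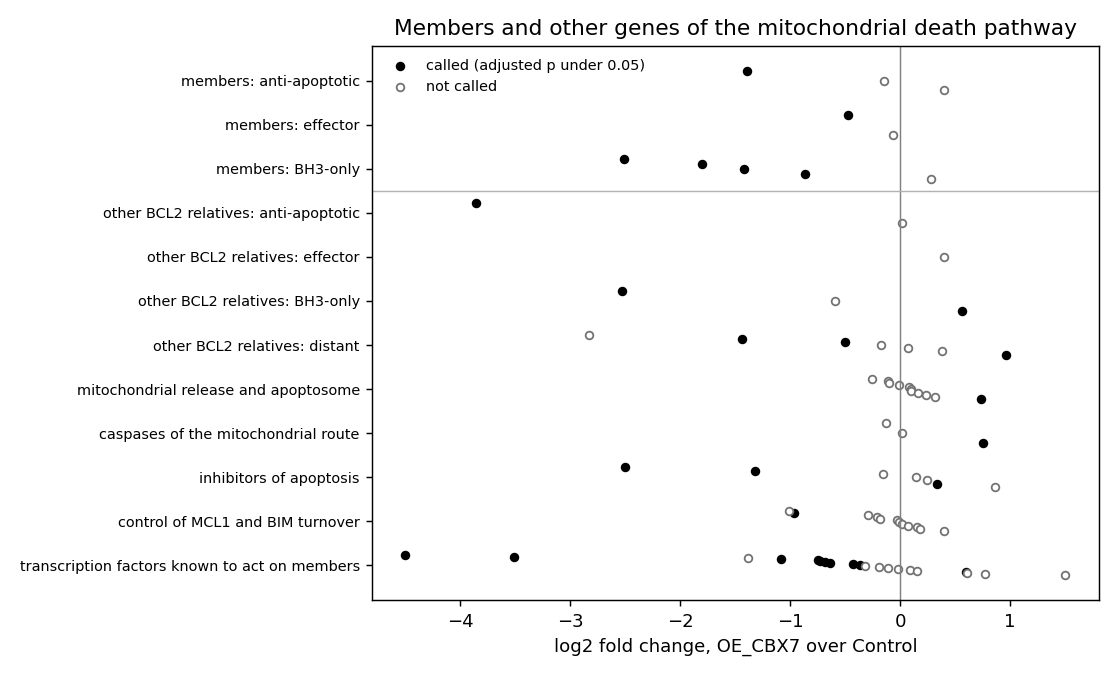
Log2 fold change of OE_CBX7 over Control for the 10 members (above the line) and the 66 tested genes of 9 further lists (below it), 1 point per gene, filled where called. The members' BH3-only row reaches from -2.51 to 0.28, and the release and apoptosome row stays within -0.25 and 0.74.

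The direction of the background rests in part on scaling. With library totals in place of TMM, 2487 genes were called higher and 2033 lower, against 1809 and 2399, and the same 6 members were called lower. Leaving out CBX7 library 1 gave 1021 genes called higher, and leaving out CBX7 library 2 gave 1121.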

How the data were processed

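The deposited table holds 1 whole number per gene and library, treated as estimated counts, since the submitters' processing notes name HISAT2 2.2.1, StringTie 2.2.1, DESeq2 and hg38 without roles. For annotation, strandedness and shared reads, the method was not given in the sources used here. No per-sample column was left unused. After filterByExpr and TMM scaling, edgeR 4.0.16 in R 4.3.3 (robust quasi-likelihood fit, group only) tested 17271 genes. Each SE and 95% interval is computed from the F statistic of the fit. DESeq2 1.42.0, limma-voom (limma 3.58.1), other scalings, filters of any count above 0 and a mean count of 50, an adjusted p of 0.01, a replicate block and leaving out each library were the alternatives. The tests were also run on counts drawn with 200 genes changed and the same relative spread for every gene. With 4208 genes called in these data that setting differs, so it does not show how the tests perform here. Positions and promoters are from RefSeq (GRCh38.p14).

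The members and lists were chosen with earlier results of these data known. Some genes of the further lists are not reported here and enter no list count. All members are named, with up to 4 called genes of smallest adjusted p per further list, or up to 2 of highest count where none was called. BMF, BCL2L2, BCL2L10, E2F1, ATF4, the single marker genes and genes named without values were chosen after their values were seen. Replicate counts varied beyond sampling noise (chi-square over its degrees of freedom 54.2 in the Control pair and 42.3 in the OE_CBX7 pair), and none was merged.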

Additional observations from a re-analysis of the deposited data

How the results depend on the processing

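MCL1, BBC3, PMAIP1 and BCL2L11 kept their direction and their call in all 11 alternatives, with log2 fold changes of -1.50 to -1.28, -2.11 to -1.52, -2.73 to -2.30 and -0.89 to -0.79. Each of the 7 alternatives that kept all libraries called the same 6 members lower, and with 1 library left out 4 or 5 of them were called; an arm then has 1 library, assumed to vary like the other group. At an adjusted p under 0.01, 4 members, 877 genes higher and 1520 lower were called. Leaving out 1 library gave 1021 to 1790 genes called higher and 3 to 8 pathway genes called higher. Members called higher numbered 1 (BID) with DESeq2 and 1 (BID) with library totals, and 0 in edgeR otherwise, where BID had an unadjusted p of 0.0201. Pathway genes called higher numbered 11 with limma-voom, 13 with library totals, 11 without the low-count filter and 11 when the mean count had to reach 50. Library totals moved the median log2 fold change of all genes to 0.066 and the guards' class mean difference to -0.31.

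BAX and BCL2L2, neither of them called, and 1 ratio changed sign. BAX was 0.0012 with library totals and ran from -0.15 to 0.035 with 1 library left out. With 1 library left out BCL2L2 ran from -0.027 to 0.075 and the BIK to MCL1 log2 ratio from -0.30 to 0.20. The cause was not tested. Libraries share replicate numbers in the labels, but the correlation of same-numbered deviations across genes was 0.108 over only 2 pairs, which does not establish pairing. With the replicate block 12 pathway genes were called higher, and 6 members were called lower. BIK, BBC3 and BCL2 rest on at most 474 counts per library, which limits their precision.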
